A study of Mus musculus with 2 samples.

Results

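The genes described here are 10 members of the Notch pathway in mouse kidney glomerular cells: the receptors Notch1, Notch2, Notch3 and Notch4, the ligands Jag1, Jag2 and Dll4, and the transcriptional targets Hes1, Hey1 and Heyl. They were taken by symbol from the feature list shared by both libraries, in which all 10 were found among 31058 features, and each was followed across arterial and glomerular endothelial, mesangial, smooth muscle or renin, parietal and podocyte cells. The study profiled single cells from glomeruli of 2 healthy C57Bl/6 mice, 1 labelled female and 1 labelled male, by 10x 3′ sequencing. Their shared genotype was Pax2.rtTA;TetO.Cre;R26.Confetti, in which Pax2 control and doxycycline switch on Cre and a multicolour reporter, with doxycycline given at 19 days of age and death at 30 days. Each label has 1 library, so differences between the labels have no replicate check and no test was possible.

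Notch receptors are single-pass membrane proteins that are activated by Jagged or Delta-like ligands on a neighbouring cell. Ligand pulling exposes the receptor to ADAM proteases and then to gamma-secretase, and the released intracellular domain joins the DNA-binding protein RBPJ and Mastermind co-activators on target genes, many of which encode Hes and Hey repressors. In blood vessels the pathway is known for arterial identity of the endothelium and for the coating of arteries by smooth muscle, and in the kidney for nephron patterning.

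The female-labelled library gave 4909 cells with a median of 10672 UMIs (molecule barcodes, which count captured transcripts once), and the male-labelled library gave 4442 cells with a median of 9616 UMIs. Xist, the X inactivation transcript, was at 0.682 CPM (UMIs per 1000000 UMIs) in the female-labelled library and at 1593 CPM in the male-labelled library, and the summed Y-linked genes were at 214 and 0.0206 CPM in the same order, so both libraries go against their labels. The 2 libraries shared 7 cell barcodes. Cells were clustered without the members and without 54 other Notch pathway genes, and clusters were named from marker lists. The classes held, in the female-labelled and male-labelled libraries, 85 and 82 arterial endothelial-like cells (arterial-like below), 112 and 90 glomerular endothelial-like cells, 240 and 175 mesangial-like cells, 44 and 62 smooth muscle or renin-like cells, 72 and 49 parietal epithelial-like cells (parietal-like below) and 4092 and 3677 podocyte-like cells. All markers of a class were detected in it except Actg2, which was at 0 in the smooth muscle or renin-like class, and Sost was the only other marker under 20 CPM in its class, at 14.6 and 5.60 CPM in glomerular endothelial-like cells of the female-labelled and male-labelled libraries. Podocyte markers, summed, reached 7380 and 7368 CPM in arterial-like cells, against 25633 and 26868 CPM in podocyte-like cells. Glomerular endothelial markers, summed, were at 3330 and 3370 CPM in arterial-like cells, against 14083 and 11934 CPM in glomerular endothelial-like cells. Arterial markers were at 2704 and 2697 CPM in arterial-like cells, against 1039 and 1151 CPM in glomerular endothelial-like cells. Podocyte-like cells held the glomerular endothelial markers at 3199 and 3476 CPM and the arterial markers at 1979 and 1932 CPM. In podocyte-like cells 2 of the 10 glomerular endothelial and 3 of the 10 arterial markers were at 20 CPM or more in each library. The 2 endothelial classes thus share markers with each other and with podocyte-like cells. The part of these markers in the endothelial ratios was not tested.

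Levels below are CPM of the summed UMIs of a class in 1 library, with 95% exact Poisson intervals in brackets that cover counting error only. Because 3′ counts per gene depend on how well each transcript is captured, levels are compared between cell classes and not between genes. The classes were built from other genes of the same cells, so the differences between classes are given as a description and not as a test.

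Notch1 (ENSMUSG00000026923, chr2:26457903-26516663 of mm10, minus strand), the receptor best known from endothelial and haematopoietic development, was highest in the endothelium. Glomerular endothelial-like cells had it at 253 CPM (227 to 281) in the female-labelled library and at 248 CPM (212 to 287) in the male-labelled library. In arterial-like cells it was at 134 CPM (113 to 158) and 237 CPM (206 to 271) in the female-labelled and male-labelled libraries, so the arterial-like values of the libraries did not overlap in their intervals. The mesangial-like cells followed with 96.8 and 137 CPM, then smooth muscle or renin-like cells with 81.4 and 87.6 CPM and parietal-like cells with 27.0 and 23.8 CPM. In podocyte-like cells Notch1 was nearly absent, at 0.219 and 0.177 CPM, which rested on 11 and 7 UMIs in the female-labelled and male-labelled libraries.

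Notch4 (ENSMUSG00000015468, chr17:34564268-34588503, plus strand), a receptor known mainly from endothelium, was the other endothelial receptor. It was at 112 CPM (92.8 to 134) and 98.9 CPM (79.1 to 122) in arterial-like cells and at 96.0 CPM (80.4 to 114) and 90.9 CPM (70.2 to 116) in glomerular endothelial-like cells of the female-labelled and male-labelled libraries. These intervals overlap between the 2 endothelial classes. Of the other 4 classes the mesangial-like cells had the most, at 16.4 and 13.5 CPM. Podocyte-like cells held Notch4 at 5.30 CPM (4.69 to 5.98) and 5.10 CPM (4.42 to 5.85), on 266 and 201 UMIs. The ratio of Notch1 to Notch4 UMIs was 0.0414 (0.0204 to 0.0752) and 0.0348 (0.0138 to 0.0731) in podocyte-like cells, against 2.64 (2.15 to 3.25) and 2.72 (2.04 to 3.68) in glomerular endothelial-like cells.

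Notch3 (ENSMUSG00000038146, chr17:32120820-32166852, minus strand), the receptor of vascular mural cells, was highest in smooth muscle or renin-like cells, at 558 CPM (488 to 634) and 489 CPM (431 to 553) in the female-labelled and male-labelled libraries. Mesangial-like cells held 115 CPM (102 to 129) and 108 CPM (92.9 to 125). At least 1 Notch3 UMI was found in 97.7% and 93.5% of smooth muscle or renin-like cells, at medians of 8123 and 7723 UMIs per cell, against 0.269% and 0.163% of podocyte-like cells, whose median depths were 10725 and 9706 UMIs. After each cell was thinned to 3000 UMIs the shares in smooth muscle or renin-like cells were 79.5% and 72.6%. In glomerular endothelial-like cells Notch3 was at 13.1 CPM in the female-labelled library and at 0 in the male-labelled library, where a count of 0 allows up to 3 UMIs. All 18 of those UMIs lay among 5 cells that had 2 or more UMIs of Pdgfrb, a mesangial marker, and without these cells Notch3 was at 0 in both libraries. Mesangial markers, summed, were at 2029 and 71.3 CPM in glomerular endothelial-like cells of the female-labelled and male-labelled libraries.

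Notch2 (ENSMUSG00000027878, chr3:98013527-98150361, plus strand), the receptor known from nephron patterning, was found in 35.2% and 35.0% of podocyte-like cells, at 37.6 CPM (35.9 to 39.4) and 43.5 CPM (41.5 to 45.6), against 3.57% and 1.11% of glomerular endothelial-like cells, whose median depths were 7932 and 6435 UMIs. Smooth muscle or renin-like cells were at 43.1 CPM (25.5 to 68.1) and 62.8 CPM (43.3 to 88.3) and parietal-like cells at 47.9 CPM (38.2 to 59.2) and 40.1 CPM (28.2 to 55.3). The values of these 3 classes overlap between libraries. Mesangial-like cells held 18.7 and 19.7 CPM and arterial-like cells 12.5 and 17.2 CPM, and in arterial-like cells Notch2 was at 1.47 and 0 CPM once the 25% of cells with the most podocyte marker UMIs were left out. Glomerular endothelial-like cells held 3.64 and 1.40 CPM on 5 and 1 UMIs, and 4.57 and 1.92 CPM after the same cut, so which endothelial class had less Notch2 turned with these cells.

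**Figure D1:**
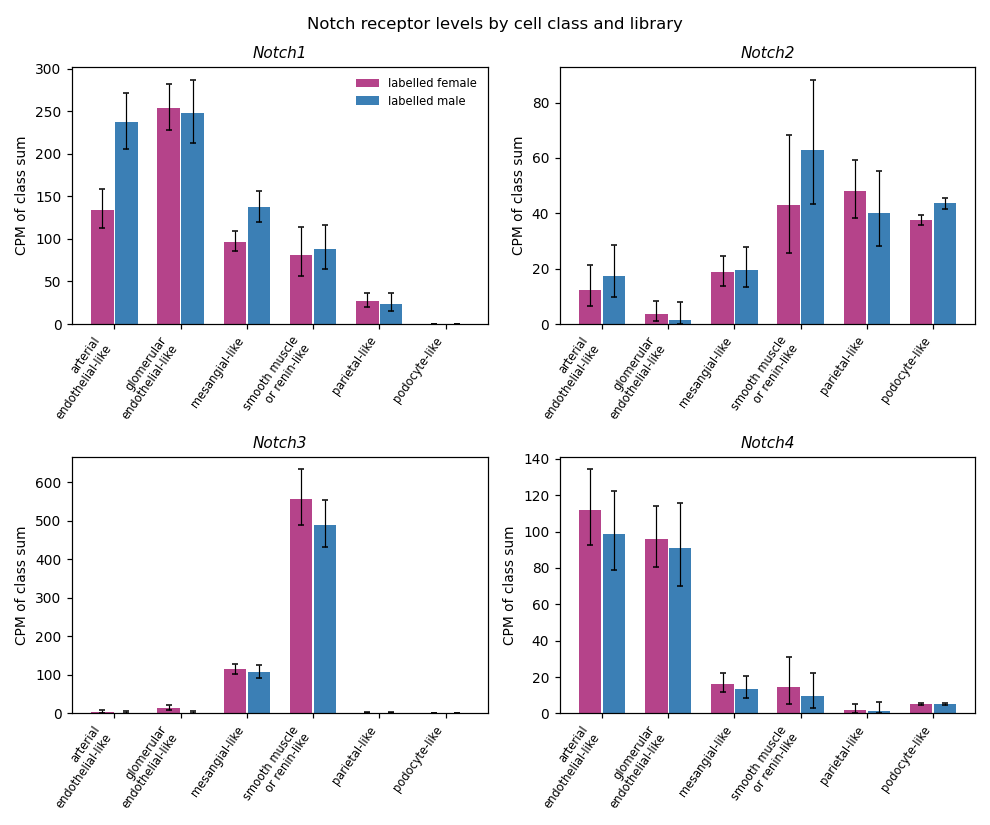
Levels of the 4 receptors in CPM of the class sum (vertical axis, starting at 0) in 6 cell classes, with the female-labelled library left of the male-labelled library and exact Poisson 95% intervals as bars. Notch1 and Notch4 stood highest in the endothelial classes, Notch3 in the smooth muscle or renin-like class (558 and 489 CPM), and Notch2 was low in both endothelial classes.

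Jag1 (ENSMUSG00000027276, chr2:137081456-137116644, minus strand), a Jagged ligand, was high in 3 of the 6 classes. Arterial-like cells held 165 CPM (141 to 191) and 198 CPM (169 to 230), smooth muscle or renin-like cells 134 CPM (101 to 174) and 166 CPM (133 to 204), and parietal-like cells 89.0 CPM (75.6 to 104) and 91.0 CPM (72.6 to 113) in the female-labelled and male-labelled libraries. Glomerular endothelial-like cells (13.8 and 33.6 CPM) and mesangial-like cells (23.6 and 31.4 CPM) were far lower, and podocyte-like cells were at 2.07 and 1.83 CPM. The thick ascending limb-like cells, tubule cells that came with the glomeruli, were at 23.7 and 37.8 CPM.

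Jag2 (ENSMUSG00000002799, chr12:112907819-112929776, minus strand), the other Jagged ligand, was an endothelial transcript. It was at 141 CPM (119 to 166) and 193 CPM (165 to 225) in arterial-like cells and at 48.7 CPM (37.8 to 61.9) and 61.6 CPM (44.7 to 82.6) in glomerular endothelial-like cells, while no other class of the 6 exceeded 8.0 CPM in either library. Dll4 (ENSMUSG00000027314, chr2:119325784-119335962, plus strand), the Delta-like ligand of sprouting and arterial endothelium, was also endothelial. Its level was 29.7 CPM (20.2 to 42.2) and 63.2 CPM (47.6 to 82.3) in arterial-like cells, and 38.6 CPM (28.9 to 50.4) and 46.2 CPM (31.8 to 64.8) in glomerular endothelial-like cells. The order of the 2 endothelial classes for Dll4 differed between the libraries. In podocyte-like cells Dll4 had 2 and 1 UMIs in all.

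Hes1 (ENSMUSG00000022528, chr16:30064384-30067796, plus strand), a basic helix-loop-helix repressor that many signals besides Notch induce, was found in every class. Smooth muscle or renin-like cells were highest on average, at 182 CPM (143 to 228) and 322 CPM (275 to 374), followed by glomerular endothelial-like cells at 157 CPM (137 to 180) and 235 CPM (201 to 273). Arterial-like cells held 104 and 181 CPM, mesangial-like cells 96.0 and 184 CPM and parietal-like cells 152 and 120 CPM, and the library values of these neighbours overlap. Podocyte-like cells were lowest, at 37.5 CPM (35.8 to 39.2) and 33.5 CPM (31.7 to 35.4).

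Heyl (ENSMUSG00000032744, chr4:123233556-123249875, plus strand), a Hey-family repressor, was a mural and parietal transcript. It was at 101 CPM (72.5 to 136) and 116 CPM (88.9 to 149) in smooth muscle or renin-like cells, 49.0 CPM (39.2 to 60.4) and 35.8 CPM (24.6 to 50.2) in parietal-like cells, and 21.3 CPM (16.1 to 27.7) and 41.2 CPM (31.9 to 52.3) in mesangial-like cells. No Heyl UMI was found in arterial-like cells of either library, which allows up to 2.88 and 3.45 CPM at 3 counts. Hey1 (ENSMUSG00000040289, chr3:8663359-8667256, minus strand), a related repressor known from arterial endothelium, was low everywhere and highest in arterial-like cells, at 18.2 CPM (11.0 to 28.4) and 27.6 CPM (17.7 to 41.1). Glomerular endothelial-like cells held Hey1 at 6.55 and 22.4 CPM and had 3 and 0 Heyl UMIs.

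**Figure D2:**
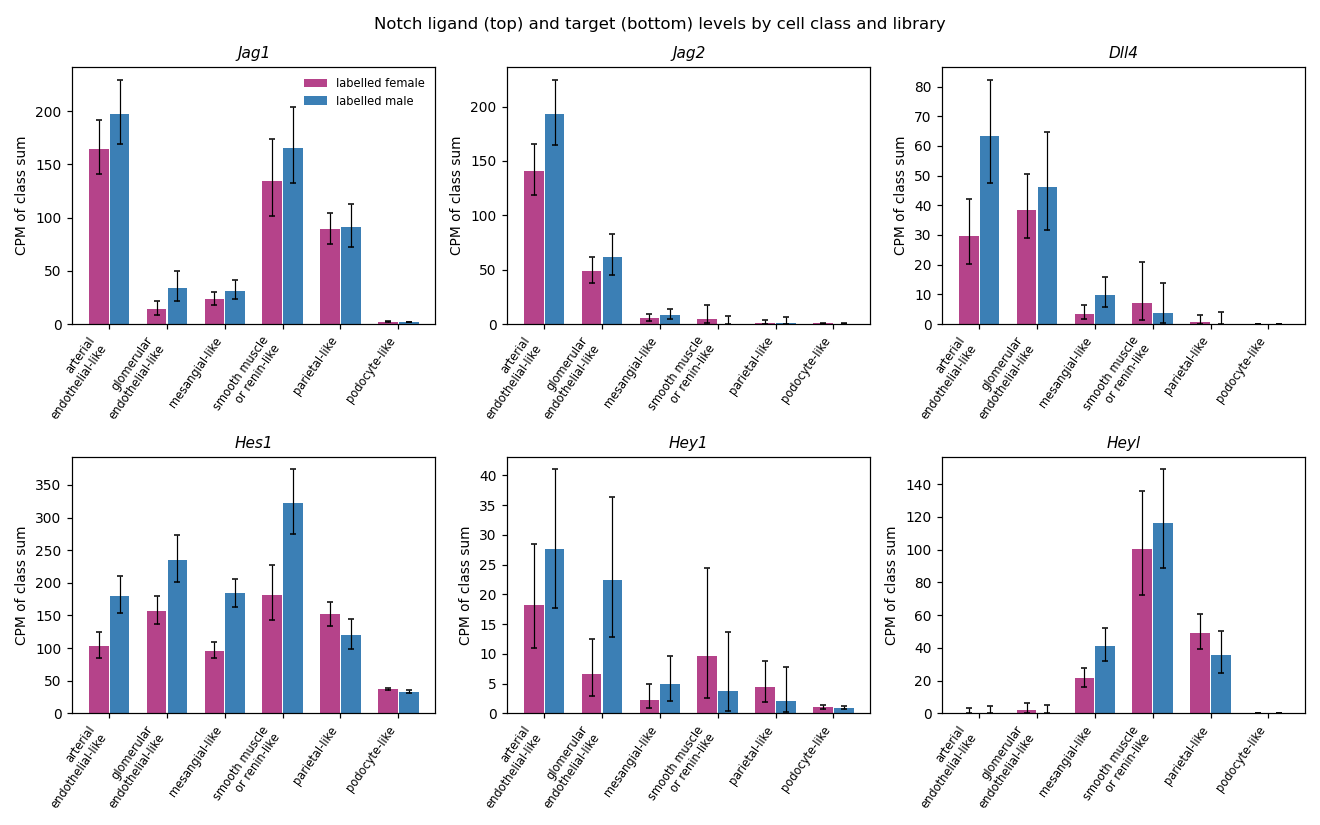
Levels of the 3 ligands (upper row) and 3 targets (lower row) in CPM of the class sum, starting at 0, in 6 cell classes, with the female-labelled library left of the male-labelled library and exact Poisson 95% intervals as bars. Jag1 stood high in arterial-like, smooth muscle or renin-like and parietal-like cells, Jag2 and Dll4 in the 2 endothelial classes, and Heyl in the smooth muscle or renin-like class (101 and 116 CPM).

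The same cells often held a receptor and a ligand. In arterial-like cells 72 of 85 and 66 of 82 cells had at least 1 UMI of a receptor and 1 of a ligand in the female-labelled and male-labelled libraries. In glomerular endothelial-like cells these were 57 of 112 and 44 of 90 cells, and in parietal-like cells 39 of 72 and 20 of 49. In smooth muscle or renin-like cells Notch3 and Jag1 were found together in 25 of 44 and 38 of 62 cells. Podocyte-like cells held a receptor and a ligand in 46 of 4092 and 34 of 3677 cells. Notch2 and Jag1 were together in 32 and 25 podocyte-like cells. In arterial-like cells 81 and 75 cells held a receptor and 76 and 73 a ligand. The joint counts depend on such shares, on depth and on podocyte RNA in the other classes. The part of each was not tested.

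Arterial-like cells were compared with glomerular endothelial-like cells to see how the Notch genes are divided between 2 kinds of endothelium. Jag1 was 11.9-fold (7.41 to 20.3) and 5.89-fold (3.83 to 9.44) higher in the arterial-like cells of the female-labelled and male-labelled libraries, and Jag2 was 2.89-fold (2.15 to 3.92) and 3.14-fold (2.24 to 4.48) higher. The brackets are exact 95% intervals of the CPM ratio for counting error. These were the 2 members that were 2-fold or more higher in both libraries, among 6 that reached 20 CPM in at least 1 of the 2 classes in each library, and none was 2-fold or more lower. Over all 6889 genes at that level, 5.68% were 2-fold or more higher and 5.82% were 2-fold or more lower in both libraries. Neither endothelial receptor reached 2-fold. Notch4 had ratios of 1.17 (0.903 to 1.51) and 1.09 (0.779 to 1.52), and Notch1, lower in arterial-like cells of the female-labelled library, of 0.530 (0.432 to 0.647) and 0.957 (0.779 to 1.18). Dll4 was at 0.771 (0.478 to 1.22) and 1.37 (0.874 to 2.18), and Hes1 was lower in arterial-like cells at ratios of 0.659 (0.518 to 0.834) and 0.768 (0.614 to 0.961).

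Podocyte transcripts in arterial-like cells were concentrated in part of the cells but remained in the others. Without the 25% of arterial-like cells that had the most podocyte marker UMIs, the summed podocyte markers were at 1649 and 1400 CPM in the female-labelled and male-labelled libraries. In the remaining 64 and 61 cells Jag1 was at 241 and 256 CPM and Jag2 at 189 and 245 CPM, above the levels over all arterial-like cells. The rise was not particular to these ligands. Notch4 (142 and 123 CPM), Dll4 (32.3 and 84.1), Hes1 (112 and 219) and Hey1 (22.0 and 33.6) also rose, while Notch2 fell and Notch3 was at 5.87 and 0 CPM. Notch1 rose to 184 and 310 CPM, against 249 and 268 CPM in glomerular endothelial-like cells after the same cut, so its order differed between the libraries. This choice of cells was made after the data were seen.

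Of the 54 other pathway genes, 32 reached 20 CPM in this comparison, with 0 called higher and 3 called lower in arterial-like cells, and a median log2 ratio of -0.12 against -0.02 over all genes. Dlk1, a Delta-like protein without the usual receptor-activating domain, had 0 UMIs in arterial-like cells against 295 CPM in glomerular endothelial-like cells of the female-labelled library, which is at least 102-fold lower at a floor of 3 counts in the library. In the male-labelled library Dlk1 was at 50.6 CPM in arterial-like cells, in 2.44% of the cells, against 249 CPM in glomerular endothelial-like cells. Maml2, a Mastermind co-activator, was at 6.71 and 14.9 CPM in arterial-like cells against 57.5 and 57.4 CPM in glomerular endothelial-like cells. Neurl1b, a ubiquitin ligase that acts on ligands, was at 12.5 and 9.20 CPM in arterial-like cells against 48.0 and 54.6 CPM in glomerular endothelial-like cells.

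Smooth muscle or renin-like cells were compared with mesangial-like cells, the 2 kinds of mural cell of the glomerulus and its arterioles. Notch3 was 4.85-fold (4.07 to 5.77) and 4.52-fold (3.72 to 5.51) higher in smooth muscle or renin-like cells, and Jag1 was 5.67-fold (3.88 to 8.28) and 5.28-fold (3.70 to 7.62) higher in the female-labelled and male-labelled libraries. Heyl was 4.71-fold (3.08 to 7.16) and 2.82-fold (1.96 to 4.05) higher and Notch2 2.31-fold (1.27 to 4.03) and 3.19-fold (1.90 to 5.36) higher. These 4 members were 2-fold or more higher in both libraries, among 6 at 20 CPM in at least 1 of the 2 classes in each library, and none was 2-fold or more lower. Over 6933 genes, 5.83% were 2-fold or more higher and 9.38% were 2-fold or more lower. Hes1 was 1.89-fold (1.45 to 2.46) and 1.75-fold (1.44 to 2.12) higher, short of that limit, and Notch1 was at ratios of 0.841 (0.570 to 1.21) and 0.639 (0.454 to 0.880). The median log2 ratio of all genes was -0.13 and -0.15 in the 2 libraries, and the same 4 members passed after this shift was removed. Without the 25% of cells with the most podocyte markers, Notch2 no longer passed in both libraries, at 26.0 and 76.4 CPM in smooth muscle or renin-like cells against 15.9 and 17.4 CPM in mesangial-like cells, and Hes1 passed.

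Of the other pathway genes 30 of 54 reached 20 CPM, with 3 called higher and 1 called lower, and a median log2 ratio of -0.25. Hey2, a Hey repressor of arteries and heart, was at 47.9 and 60.9 CPM in smooth muscle or renin-like cells against 1.52 and 0.615 CPM in mesangial-like cells, on 4 and 1 mesangial-like UMIs. Its ratios were 31.4 (10.5 to 126) in the female-labelled library and 99.1 (16.5 to 4034) in the male-labelled library. Nrarp, a Notch-induced inhibitor of the Notch complex, was at 55.1 and 99.0 CPM in smooth muscle or renin-like cells against 9.53 and 8.61 CPM in mesangial-like cells. Neurl1b was at 38.3 and 41.9 CPM in smooth muscle or renin-like cells against 11.1 and 14.1 CPM in mesangial-like cells. Psen2, a catalytic subunit of gamma-secretase, went the other way, at 14.4 and 15.2 CPM in smooth muscle or renin-like cells against 248 and 226 CPM in mesangial-like cells.

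The promoters of 3 genes that were higher in smooth muscle or renin-like cells are shown, from RefSeq on GRCm38.p6, from 250 bases before to 50 bases after the annotated start, 5′ to 3′ on the gene's strand. Capitals mark TGGGAA, the core of the RBPJ site, or its reverse complement TTCCCA. The Notch3 window is chr17:32166841-32167140 on the minus strand, the Jag1 window chr2:137116471-137116770 on the minus strand and the Hey2 window chr10:30842734-30843033 on the minus strand.
Notch3: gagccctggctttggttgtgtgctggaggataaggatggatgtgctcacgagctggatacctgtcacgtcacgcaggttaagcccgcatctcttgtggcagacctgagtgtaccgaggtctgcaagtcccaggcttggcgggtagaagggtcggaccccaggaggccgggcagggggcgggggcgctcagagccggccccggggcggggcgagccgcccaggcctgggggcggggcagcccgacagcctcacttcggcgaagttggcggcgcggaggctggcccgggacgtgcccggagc
Jag1: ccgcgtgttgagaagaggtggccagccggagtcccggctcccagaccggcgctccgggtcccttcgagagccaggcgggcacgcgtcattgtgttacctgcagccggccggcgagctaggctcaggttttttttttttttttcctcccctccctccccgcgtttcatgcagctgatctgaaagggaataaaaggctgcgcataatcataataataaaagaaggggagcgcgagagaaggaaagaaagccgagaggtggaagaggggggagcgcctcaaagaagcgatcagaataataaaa
Hey2: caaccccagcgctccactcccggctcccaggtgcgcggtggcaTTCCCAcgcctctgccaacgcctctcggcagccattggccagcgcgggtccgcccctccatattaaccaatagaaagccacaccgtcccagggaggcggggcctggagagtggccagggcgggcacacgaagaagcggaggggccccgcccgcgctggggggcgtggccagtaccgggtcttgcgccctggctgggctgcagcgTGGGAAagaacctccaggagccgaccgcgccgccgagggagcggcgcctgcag
The Hey2 window holds the letters TTCCCA from position -207 and TGGGAA from position -3, counted from the annotated start. No member promoter holds these letters on either strand, over the 7 members with an entry, which are the 4 receptors and 3 ligands. The window of Nrarp, also higher in smooth muscle or renin-like cells and not shown, does not hold these letters either. Of all 32851 promoter windows of this length 25.6% hold them, and of 56 windows of 42 other pathway genes 26.8% do. The Notch3, Jag1 and Hey2 windows have 70.0%, 55.7% and 72.0% G and C, against a median of 52.7% over all windows. A match is a description of letters and says nothing of binding, and the missing letters say nothing of the factor.

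Within the smooth muscle or renin-like class, 12 and 25 cells in the female-labelled and male-labelled libraries had 1% or more of their UMIs from Ren1, the renin gene, and 32 and 37 had less. In each library 3 cells lay within 0.5% to 2%. Notch3 was at 425 CPM (306 to 574) and 341 CPM (271 to 425) in the cells with more Ren1, against 599 CPM (517 to 690) and 609 CPM (522 to 705) in the cells with less. Nrarp was at 101 CPM (48.5 to 186) and 149 CPM (104 to 208) in the cells with more Ren1, against 40.8 CPM (21.7 to 69.7) and 58.5 CPM (34.1 to 93.6) in the cells with less. Jag1 did not separate them, at 121 and 149 CPM in the cells with more Ren1 and 138 and 179 CPM in the cells with less. Hes1 went the other way from Nrarp, at 162 and 230 CPM with more Ren1 against 188 and 396 CPM with less. The intervals of Notch3, Nrarp and Hes1 all overlap in the female-labelled library, where Nrarp had 10 and 13 UMIs, and do not overlap in the male-labelled library. Heyl changed order between the libraries, at 142 and 64.0 CPM with more Ren1 against 87.8 and 158 CPM with less. Ren1 was among the markers of the class, and the part of its own share of the UMIs in these CPM values was not tested.

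Parietal-like cells, which line Bowman's capsule, were compared with podocyte-like cells, the filter cells of the same epithelial origin. Jag1 was 42.9-fold (33.3 to 55.5) and 49.9-fold (36.0 to 69.3) higher in parietal-like cells of the female-labelled and male-labelled libraries. Notch1 was 123-fold (63.1 to 263) and 134-fold (55.4 to 372) higher. Hes1 was 4.05-fold (3.55 to 4.61) and 3.59-fold (2.93 to 4.36) higher. Heyl was higher by ratios of 1228 (330 to 10303) and 1411 (236 to 57384), which rest on 2 and 1 podocyte-like UMIs. These 4 of the 5 members at 20 CPM by the same rule were 2-fold or more higher in both libraries, beside 17.0% of 7184 genes, and none was lower, beside 8.87%. Notch2 did not separate the classes, with ratios of 1.27 (1.01 to 1.58) and 0.921 (0.646 to 1.27). Smooth muscle or renin markers, summed, were at 3067 and 4460 CPM in parietal-like cells against 827 and 806 CPM in podocyte-like cells, and their part in the result was not tested. Of these 10 markers 4 were at 20 CPM or more in parietal-like cells of each library, and Rergl was at 0 in both. Notch3 had 1 and 0 UMIs in parietal-like cells. The parietal-like class itself changed with the clustering, and where it took in the Cst12-led cells described below (Leiden resolution 0.5), Jag1 and Hes1 still passed while Notch1, in both libraries, and Heyl, in the male-labelled library, fell under 20 CPM. Notch1 was then at 17.7 and 11.4 CPM, still 80.7-fold and 64.5-fold higher than in podocyte-like cells, and Heyl at 30.1 and 19.2 CPM. Notch1 also missed the 20 CPM level in 1 library at a mitochondrial limit of 50% (20.3 and 16.0 CPM) and after thinning to 3000 UMIs (18.5 and 20.4 CPM), with ratios from 45.5 to 225 in these 2 settings.

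Of the other pathway genes 29 of 54 reached 20 CPM here, with 3 called higher, 1 called lower and a median log2 ratio of -0.05. Dtx3, a Deltex-type ubiquitin ligase, was at 47.3 and 43.4 CPM in parietal-like cells against 8.30 and 7.0 CPM in podocyte-like cells. Bhlhe40, a helix-loop-helix repressor related to the Hes genes, was at 105 and 88.9 CPM in parietal-like cells against 29.4 and 20.4 CPM in podocyte-like cells. Dtx4, another Deltex gene, was at 22.0 and 20.6 CPM in parietal-like cells against 8.85 and 7.96 CPM in podocyte-like cells. Maml3, a Mastermind co-activator, was lower in parietal-like cells, at 67.6 and 66.1 CPM against 186 and 194 CPM in podocyte-like cells.

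**Figure D3:**
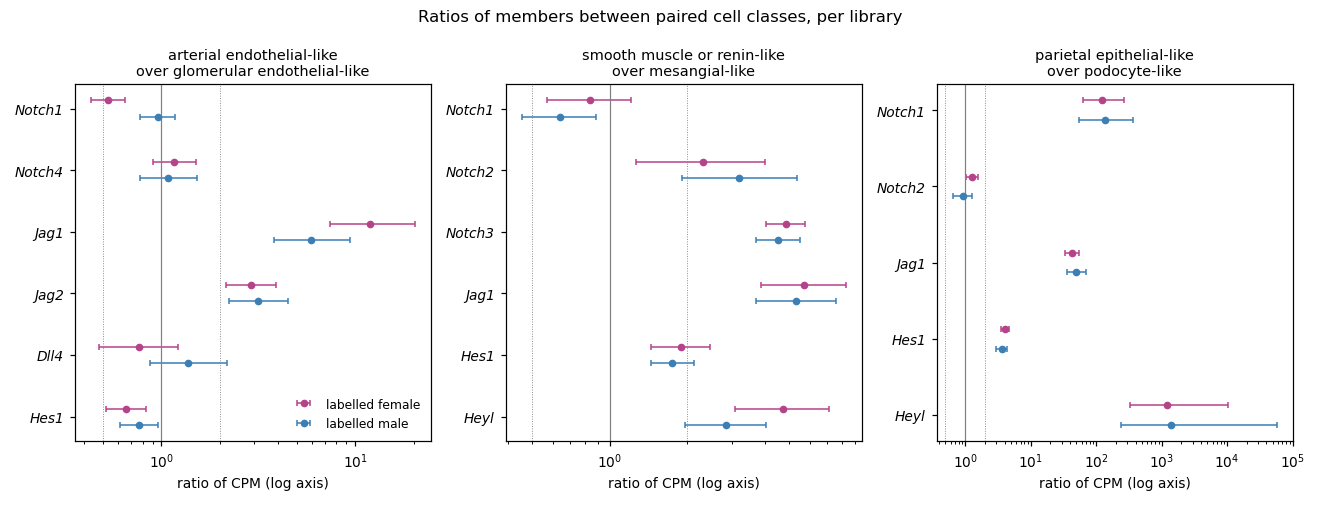
Ratios of CPM on a log axis for the members at 20 CPM or more, arterial-like over glomerular endothelial-like (left), smooth muscle or renin-like over mesangial-like (middle) and parietal-like over podocyte-like (right), with the female-labelled library above the male-labelled library, exact 95% intervals as bars and dotted lines at 2-fold. Jag1 lies right of the 2-fold line in all 3 panels and both libraries, from 5.28-fold to 49.9-fold.

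A cluster led by Cst12, Igfbp6 and Dkk3, which the marker rule left unnamed, held 148 and 125 cells in the female-labelled and male-labelled libraries. Jag1 was at 21.6 CPM (15.9 to 28.7) and 18.7 CPM (12.5 to 26.8), Heyl at 14.7 CPM (10.1 to 20.8) and 9.01 CPM (4.93 to 15.1), and Hes1 at 85.4 CPM (73.6 to 98.6) and 99.2 CPM (84.1 to 116). Notch1 was at 10.1 CPM (6.33 to 15.3) and 3.86 CPM (1.42 to 8.41), and Notch2 was at 50.1 CPM (41.1 to 60.4) and 56.0 CPM (44.9 to 69.1). Jag1, Heyl, Hes1 and Notch1 were thus below their parietal-like and above their podocyte-like levels in both libraries. In the male-labelled library the Hes1 interval overlaps that of parietal-like cells (99.0 to 145 CPM). Notch2 was above both levels, but its intervals overlap those of parietal-like cells in both libraries. They also overlap that of podocyte-like cells in the male-labelled library.

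Podocyte-like cells fell into 7 clusters, over which Notch2 ranged from 34.2 to 42.9 CPM in the female-labelled library and from 37.2 to 46.2 CPM in the male-labelled library. Hes1 varied more. It was highest in cluster 4, led by Matn4, heat-shock genes and early response genes such as Egr1 and Ier2, at 57.8 CPM (52.8 to 63.2) and 49.8 CPM (43.9 to 56.2). The median over the 7 clusters was 33.5 and 30.2 CPM and the lowest was 24.6 and 29.1 CPM. Cluster 0, led by other early response genes such as Atf3 and Egr2, held 37.9 CPM (34.6 to 41.4) and 29.7 CPM (24.7 to 35.3). Jag1 stayed between 1.05 and 2.88 CPM, Notch4 between 3.39 and 6.67 CPM and Heyl at or below 0.235 CPM in all 7 clusters of both libraries. The clusters are groups of the same cells, and their differences were not tested.

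**Figure D4:**
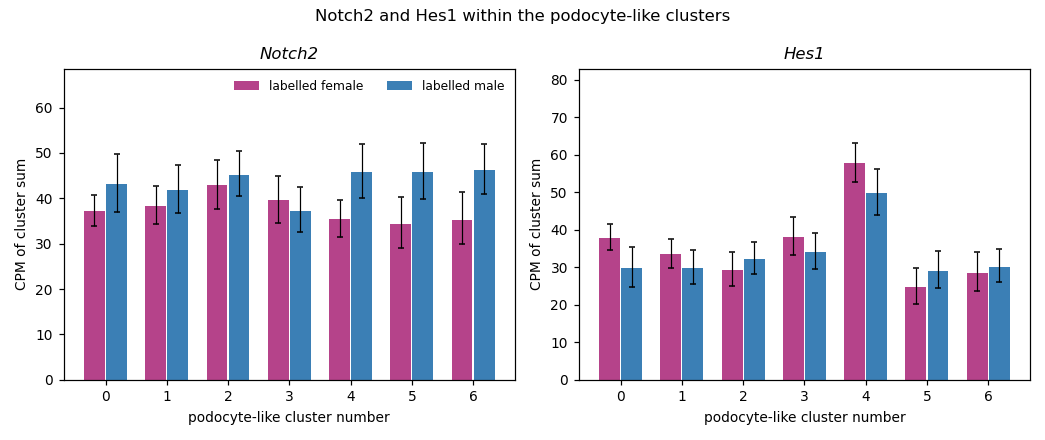
Notch2 (left) and Hes1 (right) in CPM of the cluster sum, starting at 0, in the 7 podocyte-like clusters, with the female-labelled library left of the male-labelled library and exact Poisson 95% intervals as bars. Notch2 lay between 34.2 and 46.2 CPM in all clusters, and Hes1 stood highest in cluster 4 at 57.8 and 49.8 CPM.

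The female-labelled library was set against the male-labelled library within each class, with 1.5-fold as the limit. In arterial-like cells Notch1 (ratio 0.567, 0.454 to 0.706), Dll4 (0.470, 0.292 to 0.743), Hes1 (0.574, 0.445 to 0.737) and Hey1 (0.660, 0.342 to 1.26) were lower in the female-labelled library, 4 of 7 members at 20 CPM in at least 1 library, beside 7.54% of all genes. The interval of Hey1 spans 1. In glomerular endothelial-like cells Jag1 (0.412, 0.213 to 0.784) and Hey1 (0.293, 0.114 to 0.703) were lower, 2 of 7 members beside 7.40% of genes. In mesangial-like cells Hes1 (0.522, 0.440 to 0.620) and Heyl (0.518, 0.357 to 0.750) were lower, 2 of 5 beside 4.98%. In smooth muscle or renin-like cells Hes1 (0.565, 0.425 to 0.745) was lower, 1 of 6 beside 12.8%. No member at 20 CPM in at least 1 library was 1.5-fold or more higher in the female-labelled library in any of the 6 classes. Of all genes at that level 6.80%, 10.9%, 5.42%, 15.3%, 6.81% and 1.18% were, in the order of the classes above with parietal-like and podocyte-like cells last. In parietal-like and podocyte-like cells only 5 and 2 members were at that level. None of these was 1.5-fold or more lower either, beside 5.28% and 0.405% of genes. After thinning to 3000 UMIs, Notch4 and Heyl passed as higher in smooth muscle or renin-like cells and Notch2 as lower in parietal-like cells.

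Hes1 was lower in the female-labelled library in both endothelial and both mural classes and slightly higher in parietal-like cells (1.26, 1.01 to 1.59) and podocyte-like cells (1.12, 1.04 to 1.20). In glomerular endothelial-like cells its ratio was 0.669 (0.544 to 0.823), just short of the limit, which it passed under 10 alternatives. In parietal-like cells the log2 ratio ranged from -0.02 to 0.54 over the alternatives and was below 0 at a mitochondrial limit of 50%. Notch3 stayed within 1.5-fold in the mural classes, at 1.06 (0.880 to 1.29) in mesangial-like and 1.14 (0.950 to 1.37) in smooth muscle or renin-like cells. In all, 11 early response genes, a sign of handling or stimulation, summed to 10566 and 10755 CPM in arterial-like, 8671 and 9972 CPM in glomerular endothelial-like, 5823 and 6556 CPM in mesangial-like, 10735 and 10224 CPM in smooth muscle or renin-like, 11597 and 13120 CPM in parietal-like and 20186 and 13294 CPM in podocyte-like cells of the female-labelled and male-labelled libraries. Podocyte markers in mesangial-like cells were at 3897 and 1866 CPM. The part of either in the Hes1 values was not tested, and sex label, mouse and library cannot be told apart.

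**Figure D5:**
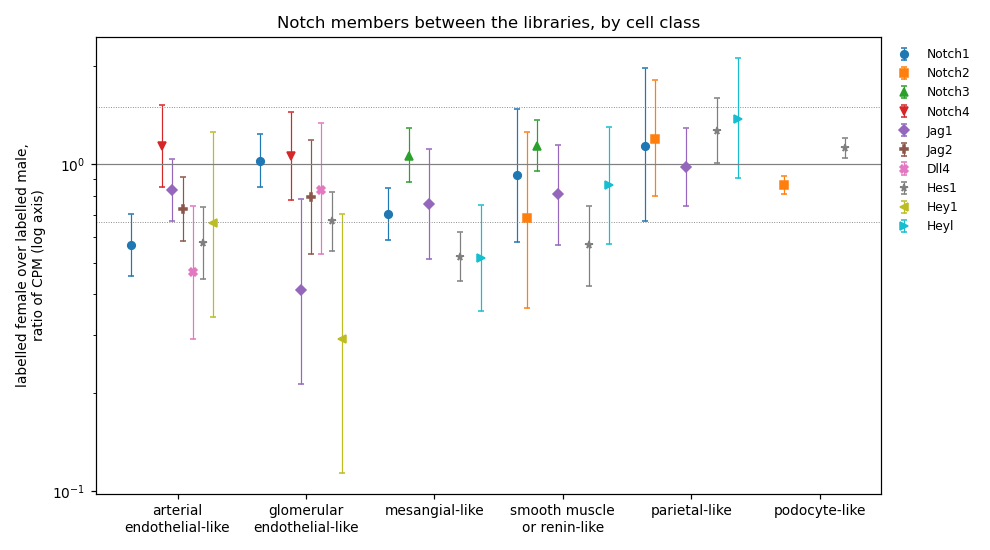
Ratio of CPM on a log axis, female-labelled library over male-labelled library, for members at 20 CPM or more in each of 6 classes, with exact 95% intervals as bars and dotted lines at 1.5-fold. Hes1 (grey stars) lies below 1 in the endothelial, mesangial-like and smooth muscle or renin-like classes and above 1 in parietal-like and podocyte-like cells.

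The genes whose levels ran most like each member were sought over 14 points, 7 classes in each of 2 libraries, by Pearson r of log2(CPM + 10) among 6143 genes. The points share libraries and depth, so r is a description. Notch3 ran with Rgs4 (r = 0.99), Npy1r (0.99) and Ednra (0.99), and Heyl with Fxyd1 (0.98), Gpc6 (0.98) and Mark1 (0.97). Notch1 ran with Dock6 (0.97), Fmnl3 (0.96) and Ralb (0.96), and Notch4 with Fam117b (0.99), Fxyd5 (0.98) and Adcy4 (0.97). Jag2 ran with Tcf15 (0.98), Ptprr (0.98) and Sox17 (0.98), the last an arterial marker used to name the classes, and Dll4 with Zfp366 (0.98), Fam117b (0.97) and Lmo2 (0.97). Notch2 ran with Pole4 (0.94), Tspan3 (0.93) and Sdc2 (0.93), and Hey1 with Tm6sf1 (0.93), Fbln2 (0.91) and Jam2 (0.91). Hes1 ran with Id3 (0.93), Dyrk2 (0.89) and Mfhas1 (0.88). Jag1 ran with Tgfb2 (0.87) and Fn1 (0.85). With log2(CPM + 1) in place of log2(CPM + 10), 9 of the 30 genes chosen by this rule were chosen again. Of the 3 genes chosen per member these were 0 for Notch1 and Notch4, 2 for Heyl and 1 for each other member.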

How the data were processed

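Kidney glomerular cells of 2 mice gave 1 10x 3′ library each. Deposited matrices hold unnormalised UMI counts, per the file headers. Cell Ranger 6.1.2, STAR 2.7.5a and build mm10 are named, per the submitters' processing notes; the strand setting is not stated. Groups follow the sample titles, although the file names carry the opposite sex. The members and lists were chosen with earlier results of these data known. Barcodes with over 20% mitochondrial UMIs (283 and 504) or under 500 genes (112 and 145) were dropped. Scrublet (scanpy 1.11.5) called 12 and 4 doublets, under 0.5% of the cells, and has not worked, so mixed cells remain. Cells were clustered (2000 variable genes, 30 components, 20 neighbours, Leiden at resolution 1.0, best of 20 seeds, leidenalg 0.10.2) and named from markers, leaving 3 of 17 clusters unnamed. The naming rule was set with the clusters known. Counts were summed per class and library for classes with 30 cells in each library and given as CPM, log ratios with a prior of 10 CPM. A member was called at 2-fold in both libraries, at 20 CPM or more in either class of each library, or, between libraries, at 1.5-fold and 20 CPM or more in either library. Named pathway genes are those called, at most 6 a comparison, and for likeness the 3 highest r, of which 1 gene is not reported here. Intervals are 95% exact Poisson or conditional binomial. Only the ratio intervals and the 2-fold limit were tried on simulated data. The simulated data were Poisson counts without variation between cells, so the trial could not show how the intervals or the limit hold where cells vary. Coordinates come from GENCODE M21, which held 30934 of the feature identifiers. Overlapping and antisense genes cannot be told apart by these counts. Precision followed the summed UMIs, 417775 to 50141577 per class and library.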

Additional observations from a re-analysis of the deposited data

Results flagged for a closer look

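Hes1 differed in direction between cell classes when the female-labelled library was set over the male-labelled library. On the log2(CPM + 10) scale it was 0.31 in parietal-like cells and 0.13 in podocyte-like cells, but -0.75 in arterial-like, -0.55 in glomerular endothelial-like, -0.87 in mesangial-like and -0.79 in smooth muscle or renin-like cells. With 1 library for each label this difference between classes was not tested.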

How the results depend on the processing

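No paired analysis was possible because each label has 1 library. No member called in the report changed sign, but after thinning to 3000 UMIs 2 others were called against their sign, Heyl in smooth muscle or renin-like cells (log2 0.66, against -0.19) and Notch2 in parietal-like cells (-0.75, against 0.21), female-labelled over male-labelled. Over all alternatives 13 class calls were lost, 9 because the gene fell under the CPM level, 3 because the limit was 3-fold and 1 because the ratio itself fell under 2-fold (Notch2 in smooth muscle or renin-like cells). Of 15 library calls lost, 6 went with the CPM level, 6 with the 2-fold limit and 3 with the ratio (Hey1 in arterial-like cells under 2 settings and Heyl in mesangial-like cells). Leaving out either library gave the same members called in the smooth muscle or renin-like and parietal-like comparisons, 4 and 4. At 3-fold the members called higher fell to 1 (Jag1) for arterial-like and 2 (Notch3 and Jag1) for smooth muscle or renin-like cells. At 50 CPM, 2 members (Jag1 and Hes1) were called higher in parietal-like cells, 1 other pathway gene each in smooth muscle or renin-like (Nrarp) and parietal-like cells (Bhlhe40), and 0 and 1 members (Hes1) were lower between libraries in glomerular endothelial-like and mesangial-like cells. Leiden resolution 0.5, and keeping Notch genes among the variable genes, each left 2 members (Jag1 and Hes1) higher in parietal-like cells and called 1 (Heyl) higher between libraries there. At resolution 0.5 no arterial-like class was found and 5 members were lower in endothelium. At a mitochondrial limit of 10% no parietal-like class was found. With no filter on low values, 1 member (Notch4) was called lower in parietal-like cells. Low-level members then also passed as higher, Notch2 in arterial-like cells (3.43-fold and 12.3-fold) and Jag2 (2.35-fold and 3.56-fold) and Hey1 (4.43-fold and 2.25-fold) in parietal-like cells. Between libraries the same setting gave 1, 3, 4, 4 and 3 members higher in arterial-like, glomerular endothelial-like, smooth muscle or renin-like, parietal-like and podocyte-like cells, with 4 lower in mesangial-like cells. At 2-fold between libraries 1 member (Dll4) was lower in arterial-like cells and 0 in mesangial-like and smooth muscle or renin-like cells. In smooth muscle or renin-like cells 2 members (Notch2 and Hes1) were lower with Notch genes kept, with the mean of per-cell CPM, after dropping the top 5% by Scrublet score and without the 25% of cells with the most podocyte markers, which left 1 (Hes1) in mesangial-like cells. Thinning to 3000 UMIs gave 2 higher and 2 lower in smooth muscle or renin-like cells and 1 lower (Notch2) in parietal-like cells. The cause was not tested. Leaving out cells with markers of another class left 0 to 24 cells in a class and library, so no values came from it. The alternatives on naming, Pdgfrb and podocyte markers were added after the data were seen.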
